A study of Mus musculus with 8 samples.

Results

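Genes of cholesterol and fatty acid synthesis were examined in mouse anterior neural progenitor cells with and without a poised enhancer of Lhx5. The module was a list of 31 gene symbols, matched to the expression table by name. The list held enzymes of the sterol pathway, regulators of the pathway and enzymes of fatty acid synthesis. A total of 30 of the 31 symbols was found among the 46406 entries of the expression table, of which 20570 carry a symbol. Mvd was not analysed here. The sterol branch had 17 matched genes, the regulators and sterol transport 4, and the fatty acid branch 9. The group of 4, Srebf1, Srebf2, Insig1 and the sterol carrier Stard4, is called the regulators below. All 30 reached a mean of at least 1 FPKM, the filter for testing, which 14521 genes passed. FPKM counts sequenced fragments relative to gene length and library size, so levels can be compared between genes.

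The cells, called AntNPC, were derived in culture from E14 mouse embryonic stem cells and stand for early forebrain tissue. Differentiation took place in N2B27 medium free of serum and LIF, with bFgf early on and Xav939, which blocks WNT signalling, towards the end. The WT group was unedited E14 cells, with 4 libraries. The null groups lacked the element named PE Lhx5(-109), removed with Cas9 and a pair of guide RNAs before puromycin selection and single-cell cloning. They were the lines PE Lhx5(-109)-/- Clon1 and PE Lhx5(-109)-/- Clon2, with 2 libraries each, here clone 1 and clone 2. Each null line is a single clone, so a difference between clone and WT holds the edit together with whatever else is peculiar to that clone, and these cannot be told apart. The labels call the libraries biological replicates and do not say whether they came from separate differentiations. Poly(A) RNA was sequenced in all 8 libraries.

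Cholesterol is built from acetyl-CoA by way of mevalonate, the isoprenoid pyrophosphates, squalene and lanosterol. Most of the genes are switched on together by the SREBP transcription factors, which are held in the endoplasmic reticulum while sterol is plentiful and are cut free when it runs low. The protein of Srebf2 acts mainly on sterol genes and that of Srebf1 mainly on fatty acid genes, and Insig1 encodes an anchor that holds SREBPs back and is itself switched on by them. The embryonic brain makes its own cholesterol, and loss of the last enzyme, DHCR7, causes Smith-Lemli-Opitz syndrome, in which forebrain malformations occur.

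Because most members share these regulators, the sequence before the start site is shown for 6 of them. Hmgcs1, Lss and Insig1 fell in clone 2, while Sc5d, Ebp and Fasn did not pass the test there. The windows come from RefSeq on GRCm38.p6, are written 5′ to 3′ on the gene's own strand, and were ended before any annotated exon. Capitals mark matches on either strand to CCAAT, the NF-Y box (ATTGG on the other strand), to CACGTG, the E-box, and to TCACNCCAC, a form of the sterol regulatory element. The windows are chr13:119690101-119690350 on the plus strand for Hmgcs1, chr10:76531355-76531587 on the plus strand for Lss and chr5:28071162-28071362 on the plus strand for Insig1. Those of Sc5d, Ebp and Fasn are chr9:42264301-42264550, chrX:8193513-8193762 and chr11:120824548-120824797, all on the minus strand.
Hmgcs1: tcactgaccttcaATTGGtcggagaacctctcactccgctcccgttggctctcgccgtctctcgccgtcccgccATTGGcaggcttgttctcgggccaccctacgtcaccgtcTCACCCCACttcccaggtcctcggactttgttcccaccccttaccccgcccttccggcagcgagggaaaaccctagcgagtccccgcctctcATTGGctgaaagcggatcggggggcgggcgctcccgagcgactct
Lss: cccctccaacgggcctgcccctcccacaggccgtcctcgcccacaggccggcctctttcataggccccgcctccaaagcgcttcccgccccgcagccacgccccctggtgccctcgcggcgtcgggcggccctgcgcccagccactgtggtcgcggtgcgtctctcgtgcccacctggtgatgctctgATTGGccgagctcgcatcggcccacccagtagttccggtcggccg
Insig1: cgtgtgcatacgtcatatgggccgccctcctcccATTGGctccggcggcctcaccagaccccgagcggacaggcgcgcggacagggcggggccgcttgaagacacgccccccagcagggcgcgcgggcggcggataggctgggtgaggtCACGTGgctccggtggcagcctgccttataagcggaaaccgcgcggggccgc
Sc5d: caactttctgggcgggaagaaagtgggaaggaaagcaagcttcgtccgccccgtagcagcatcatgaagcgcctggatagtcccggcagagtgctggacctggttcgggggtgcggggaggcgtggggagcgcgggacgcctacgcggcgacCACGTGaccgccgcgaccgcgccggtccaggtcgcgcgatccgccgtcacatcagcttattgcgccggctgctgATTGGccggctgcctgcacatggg
Ebp: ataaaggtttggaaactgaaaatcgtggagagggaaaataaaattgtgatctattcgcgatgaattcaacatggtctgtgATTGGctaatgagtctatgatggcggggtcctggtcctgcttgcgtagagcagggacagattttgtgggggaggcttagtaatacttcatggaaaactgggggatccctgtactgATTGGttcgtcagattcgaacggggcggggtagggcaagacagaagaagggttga
Fasn: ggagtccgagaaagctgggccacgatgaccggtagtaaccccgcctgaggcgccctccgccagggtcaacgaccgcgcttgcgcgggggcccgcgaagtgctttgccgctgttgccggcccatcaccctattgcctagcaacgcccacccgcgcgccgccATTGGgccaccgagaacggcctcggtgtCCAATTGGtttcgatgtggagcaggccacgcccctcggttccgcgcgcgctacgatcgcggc

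All 6 printed windows hold a CCAAT match, with 3 in Hmgcs1, 3 in Fasn, 2 in Ebp and 1 in each of Lss, Insig1 and Sc5d. In the Fasn window 2 of the matches, on opposite strands, overlap each other. Windows of 300 bases (250 before to 50 after the start) were found for 23 of the 30 members. Fdps, Fdft1, Sqle, Stard4, Scd1, Scd2 and Fads1 had none. CCAAT occurred in the windows of 19 of the 23 members, 13 of 14 in the sterol branch, 3 of 3 regulators and 3 of 6 in the fatty acid branch. Of all 27025 genes with such a window, 41.1% hold a CCAAT match, as do 37.4% of the 32851 windows. The GC box GGGCGG also occurred in 19 of 23 members, against 38.2% of genes. CACGTG was found in Hsd17b7, Sc5d, Dhcr7 and Insig1, against 8.09% of genes, and TCACNCCAC in Hmgcs1, against 1.44% of genes. These matches are a description of letters within a window and were not tested as binding sites.

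The libraries were alike in their totals. FPKM summed to between 518491 and 528726 per library, and read depth per library is unknown. Lhx5, the gene whose enhancer was removed, stood at 15.0 to 17.5 FPKM in WT, at 1.24 and 0.854 FPKM in clone 1 and at 1.90 and 1.26 FPKM in clone 2, so it was low in every null library. Clone 1 replicate 2 stood apart in its RNA: Rn7sk and Rpph1, which lack poly(A) tails, were at 250.2 and 371 FPKM there, against 8.05 to 28.4 and 3.02 to 22.8 FPKM elsewhere. All 8 progenitor markers, among them Sox1, Sox2, Pax6 and Otx2, were above 1 FPKM in every library. The 4 mesoderm and the 4 endoderm markers were below 1 FPKM in all libraries.

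In WT cells the module was expressed at widely different levels. Hmgcs1, which makes HMG-CoA, was the highest member at 343 ± 20.2 FPKM (mean ± SD, n = 4). Scd2, a desaturase that makes monounsaturated fatty acids, followed at 342 ± 3.86 FPKM, and these means differed by less than the spread of Hmgcs1. Fdps, which makes farnesyl pyrophosphate, came next at 268 ± 18.3 FPKM, then Msmo1, a sterol C4-methyl oxidase, at 202 ± 11.3 FPKM and Acly, which makes cytosolic acetyl-CoA from citrate, at 199 ± 7.10 FPKM. The lowest members were Ebp, the sterol isomerase, at 13.7 ± 1.74 FPKM, Hsd17b7, the 3-ketosterol reductase, at 13.5 ± 0.176 FPKM, and Acss2, which makes acetyl-CoA from acetate, at 10.1 ± 1.59 FPKM. Summed over its 17 genes, the sterol branch held 1563 to 1760 FPKM in the WT libraries, and the 9 fatty acid genes held 1096 to 1122 FPKM.

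The first comparison asked how the module differed between all 4 null and all 4 WT libraries. No member passed the threshold of an adjusted p of 0.05 in limma, where 0.0551% of all genes tested did (0.0482% lower, 0.00689% higher). In a fit of 3 groups, with the mean of both clones set against WT, 1 member passed, Insig1. At an unadjusted p under 0.05 there were 6 members, Idi1, Nsdhl, Insig1, Scd1, Scd2 and Fads2, and 4.74% of all genes. The log2 fold change was negative for 27 of 30 members, as it was for 61.4% of all genes. Its median was -0.18 in the sterol branch, -0.17 in the regulators and -0.13 in the fatty acid branch, against -0.02 over all genes tested. All 4 null libraries lay below all 4 WT libraries for Nsdhl, Scd1 and Scd2, and 3.22% of all genes showed that order. No member had all 4 null libraries above WT, as 1.03% of all genes did. For most members the null group was wide because its lines differed. Lss had an SD of 16.0 FPKM among the null libraries against 4.61 FPKM in WT, and Dhcr7 19.4 against 3.30 FPKM. The lines were therefore set against WT separately, in a fit of 3 groups whose clone comparisons share the WT libraries.

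In clone 2 most of the module was lower than in WT. A total of 19 of the 30 members fell and none rose past the threshold, where 14.0% of all genes tested were called (6.96% of all genes lower, 7.06% higher). The members that fell were 12 of 17 sterol genes, 3 of 4 regulators and 4 of 9 fatty acid genes. Both clone 2 libraries lay below all 4 WT libraries in 23 members, which 22.7% of all genes did. Hsd17b7 alone had both above, against 24.7% of all genes. The log2 fold change was negative in 27 of 30 members, against 49.8% of all genes. The count rests heavily on clone 2 replicate 2. Without it 4 members remained past the threshold, Hmgcs1, Fdps, Dhcr7 and Insig1, while the calls over all genes dropped from 2036 to 172. Without WT replicate 4 the member count was 10 and the count over all genes 759. Leaving out WT replicate 2 or 3 lowered the count over all genes to 1292 or 1078, with 19 and 14 members. In bulk RNA a smaller share of cells that express a gene and less RNA per cell cannot be told apart.

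**Figure D1:**
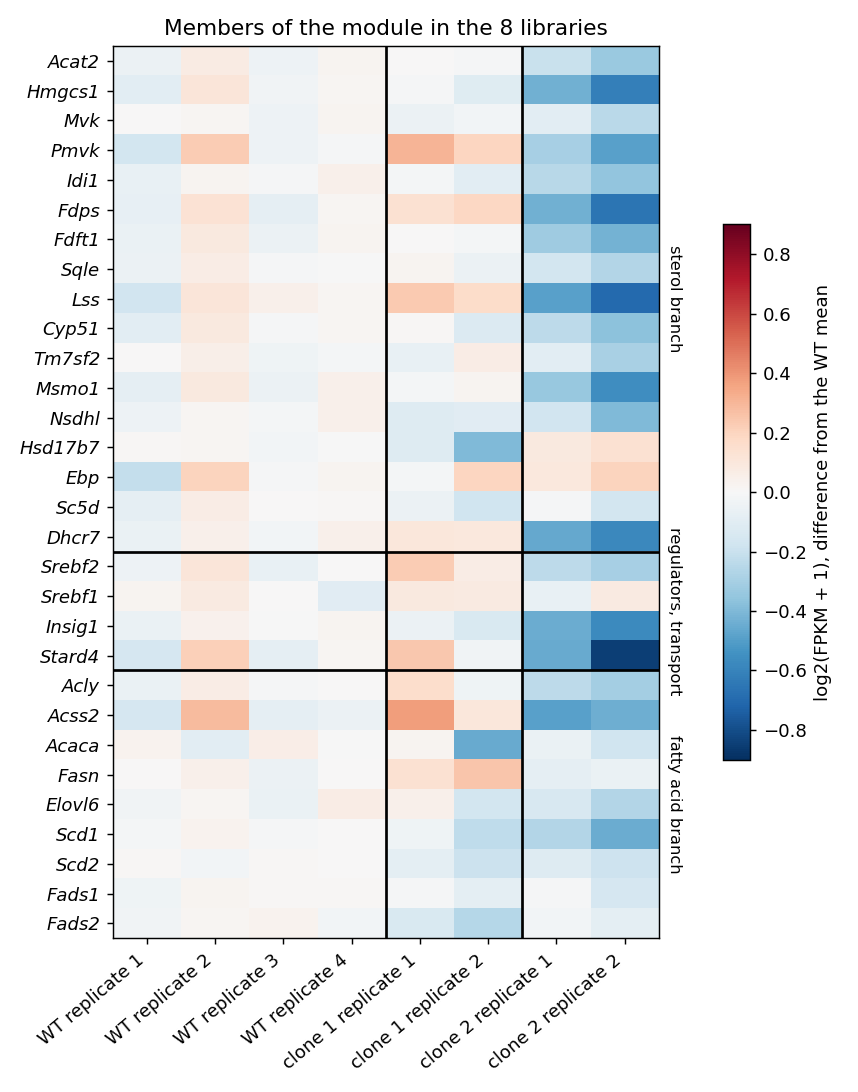
Difference of log2(FPKM + 1) from the WT mean for the 30 members (rows, by branch) in the 8 libraries (columns), red for higher and blue for lower. Both clone 2 columns are blue in most rows, and Hsd17b7 and Ebp are the sterol genes above the WT mean in both.

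The early enzymes, which lead to mevalonate and its phosphates, fell in clone 2 with the exception of Mvk. Acat2, the thiolase that joins acetyl-CoA units, stood at 116, 127, 117 and 122 FPKM in WT replicates 1 to 4, at 121 and 119 FPKM in clone 1 and at 105 and 95.0 FPKM in clone 2. Clone 2 reached 82.9% of the WT mean (log2 fold change -0.27 ± 0.051 SE, adjusted p = 0.0157). Hmgcs1 stood at 321, 369, 334 and 347 FPKM in WT, at 340.2 and 317 FPKM in clone 1 and at 253 and 223 FPKM in clone 2. Here the groups did not overlap between clone 2 and WT, and clone 2 was at 69.5% of WT (-0.52 ± 0.067, adjusted p = 0.00464). Pmvk, the phosphomevalonate kinase, had 46.6, 61.6, 50.8 and 52.0 FPKM in WT, 65.1 and 60.2 FPKM in clone 1 and 42.4 and 37.0 FPKM in clone 2. Its fall to 75.3% (-0.40 ± 0.105, adjusted p = 0.0433) was past the threshold in 4 of 14 other settings, the weakest record among the sterol genes called. Mvk, the mevalonate kinase, lay at 37.9 to 39.9 FPKM in WT and at 36.5 and 32.8 FPKM in clone 2 (-0.17 ± 0.051, adjusted p = 0.0592), and it passed without clone 2 replicate 1.

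All 4 isoprenoid and squalene enzymes among the members fell in clone 2. Idi1, which converts isopentenyl to dimethylallyl pyrophosphate, was at 80.9% of WT in clone 2 (-0.30 ± 0.048, adjusted p = 0.00866), with 91.5 to 99.0 FPKM in WT against 80.5 and 74.6 FPKM. Fdps stood at 254, 292, 253 and 271 FPKM in WT, at 295 and 305 FPKM in clone 1 and at 197 and 169 FPKM in clone 2. The 3 groups were separate, with clone 1 on top, and clone 2 was at 68.4% of WT (-0.55 ± 0.075, adjusted p = 0.00642). The read assignment of Fdps is uncertain, since 26.7% of its exonic bases also belong to exons of Gm43738 on the same strand, and the authors' deposited table gives it 393 mean reads in WT, 1.47 per FPKM against 34.0 to 243 for the other members. Fdft1, the squalene synthase, was at 53.0, 58.7, 53.4 and 56.2 FPKM in WT, at 55.5 and 54.6 FPKM in clone 1 and at 44.1 and 40.9 FPKM in clone 2. It reached 76.8% of WT in clone 2 (-0.37 ± 0.053, adjusted p = 0.00639), and 18.3% of its exonic bases are shared with the opposite-strand gene Ctsb. Sqle, the squalene epoxidase, was the least changed of the 4, at 86.2% of WT (-0.21 ± 0.047, adjusted p = 0.0241), and lost its call in 6 of 14 other settings.

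**Figure D2:**
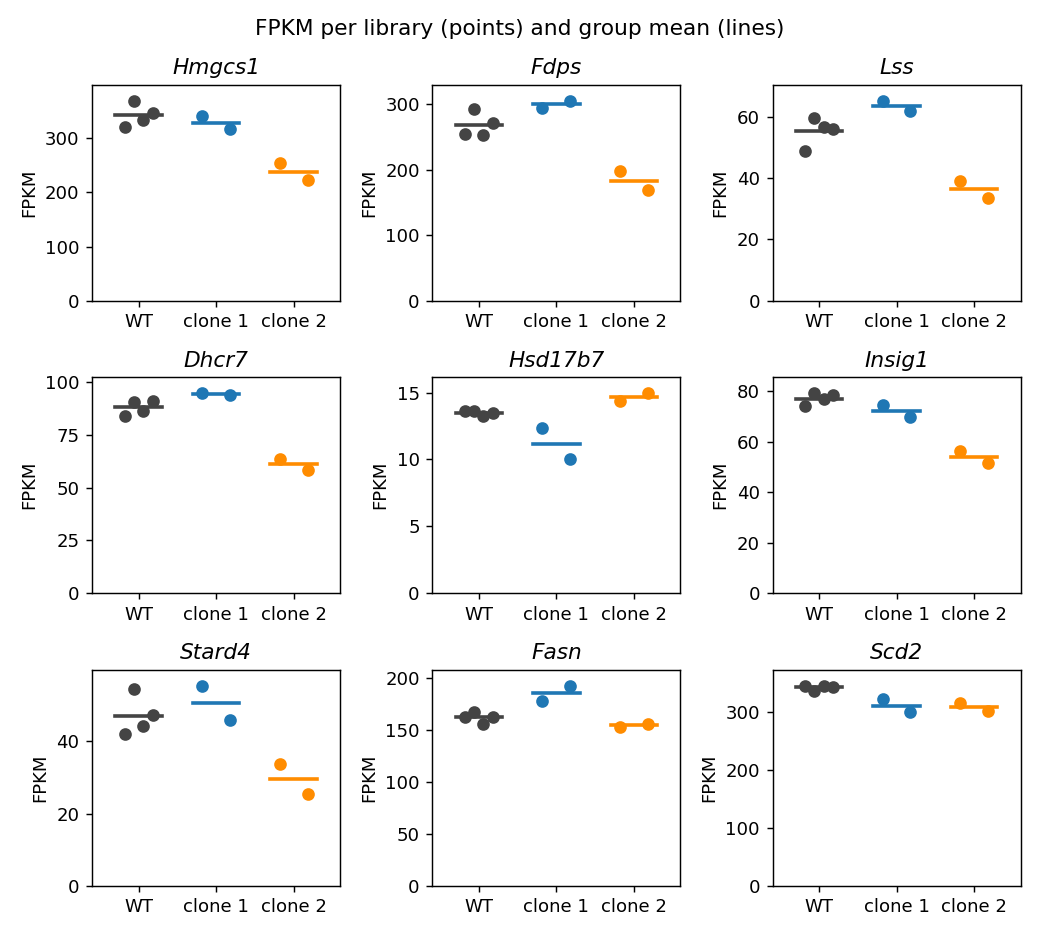
FPKM of 9 members by group, with 1 point per library and a line at the group mean, each axis starting at 0. Clone 2 lies below all WT libraries for Hmgcs1, Fdps, Lss, Dhcr7, Insig1, Stard4, Fasn and Scd2 and above them for Hsd17b7.

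Lanosterol synthase and the enzymes that trim lanosterol to cholesterol were divided. Lss, which folds the sterol ring system, stood at 48.9, 59.7, 56.9 and 56.1 FPKM in WT, at 65.3 and 62.1 FPKM in clone 1 and at 39.2 and 33.7 FPKM in clone 2. Its level of 65.7% of WT in clone 2 was the lowest in the sterol branch (-0.59 ± 0.085, adjusted p = 0.00677). Dhcr7, the last reductase, stood at 84.3, 90.7, 86.4 and 90.9 FPKM in WT, at 94.8 and 94.0 FPKM in clone 1 and at 63.6 and 58.5 FPKM in clone 2. It had the smallest adjusted p of the module in clone 2 (-0.52 ± 0.048, adjusted p = 0.00163, 69.3% of WT), with no overlap between any of the 3 groups. Msmo1 was at 190.1, 215, 195 and 208 FPKM in WT, at 199 and 205 FPKM in clone 1 and at 159 and 136 FPKM in clone 2. It reached 73.1% of WT in clone 2 (-0.45 ± 0.068, adjusted p = 0.00800), while clone 1 lay within the WT range. Cyp51, the lanosterol demethylase, and Nsdhl, the C4 decarboxylase, fell less, to 80.9% (-0.30 ± 0.062, adjusted p = 0.0199) and to 81.9% (-0.29 ± 0.062, adjusted p = 0.0224).

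The other 4 enzymes after lanosterol did not pass in clone 2. Tm7sf2, a sterol C14 reductase, was at 87.2% of WT (-0.19 ± 0.066, adjusted p = 0.0827), passing only without clone 2 replicate 1, and 12.1% of its exonic bases are shared with Vps51. Sc5d, the sterol desaturase, was at 94.1% (-0.09 ± 0.065, adjusted p = 0.408). Ebp had 11.6, 15.9, 13.5 and 13.9 FPKM in WT, 13.5 and 15.8 FPKM in clone 1 and 14.7 and 15.9 FPKM in clone 2, so its groups overlapped (0.15 ± 0.111, adjusted p = 0.402). Hsd17b7, like Ebp, lay above the WT mean in both clone 2 libraries. It stood at 13.6, 13.6, 13.3 and 13.5 FPKM in WT, at 12.4 and 10.0 FPKM in clone 1 and at 14.4 and 14.9 FPKM in clone 2, and no groups overlapped. Against WT its difference passed in neither clone (-0.26 ± 0.077, adjusted p = 0.0543, for clone 1, and 0.11 ± 0.077, adjusted p = 0.351, for clone 2). These enzymes were among the lowest of the branch in WT, where Tm7sf2, Sc5d, Ebp and Hsd17b7 ranked 24th, 27th, 28th and 29th of the 30 members.

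**Figure D3:**
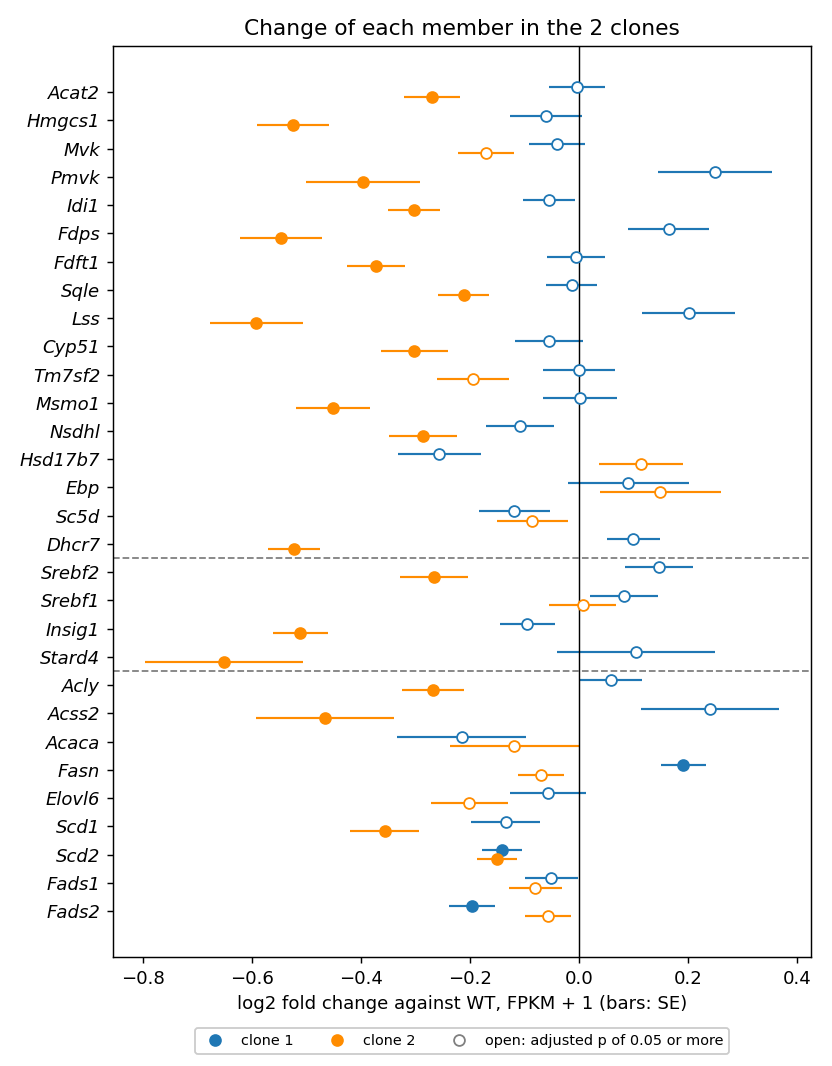
Log2 fold change of FPKM + 1 against WT for each member in clone 1 (blue) and clone 2 (orange), with bars of 1 SE, filled points for an adjusted p under 0.05 in limma and dashed lines between the branches. Filled orange points lie left of 0 in all 3 branches, and the filled blue points are Fasn, Scd2 and Fads2.

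Among the regulators, with the transport gene Stard4 counted in, 3 of 4 fell in clone 2. Srebf2 stood at 86.6, 96.6, 85.4 and 89.6 FPKM in WT, at 105 and 93.6 FPKM in clone 1 and at 76.0 and 72.5 FPKM in clone 2. It was at 82.9% of WT in clone 2 (-0.27 ± 0.062, adjusted p = 0.0275), a call lost in 6 of 14 other settings. Srebf1 was nearly level, with 32.8 to 37.5 FPKM in WT, 37.6 and 37.4 FPKM in clone 1 and 33.7 and 37.4 FPKM in clone 2 (0.01 ± 0.062 in clone 2, 95% interval -0.13 to 0.15). Insig1 stood at 74.0, 79.1, 76.8 and 78.6 FPKM in WT, at 74.4 and 69.9 FPKM in clone 1 and at 56.3 and 51.4 FPKM in clone 2. Clone 2 was apart from both other groups, at 69.8% of WT (-0.51 ± 0.050, adjusted p = 0.00219). Stard4, a carrier of sterol between membranes, stood at 42.0, 54.4, 44.2 and 47.3 FPKM in WT, at 55.4 and 45.8 FPKM in clone 1 and at 33.8 and 25.6 FPKM in clone 2. At 63.2% of WT it was the lowest of all 30 members in clone 2 (-0.65 ± 0.145, adjusted p = 0.0307), with a wide spread and a call lost in 5 of 14 other settings.

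In the fatty acid branch 4 of 9 genes fell in clone 2: Acly and Acss2, which supply acetyl-CoA, and the desaturases Scd1 and Scd2. Acly was at 191, 208, 198 and 199 FPKM in WT, at 222 and 194 FPKM in clone 1 and at 169 and 161 FPKM in clone 2 (-0.27 ± 0.057, adjusted p = 0.0212). Acss2 was at 8.89, 12.4, 9.36 and 9.58 FPKM in WT, at 13.3 and 10.8 FPKM in clone 1 and at 6.81 and 7.08 FPKM in clone 2 (-0.47 ± 0.127, adjusted p = 0.0437). Both genes make the acetyl-CoA that feeds sterol synthesis as well, and the call of Acss2 was lost in 7 of 14 other settings. Scd1, a desaturase paralogous to Scd2, was at 108, 112, 109 and 109.6 FPKM in WT, at 107 and 93.3 FPKM in clone 1 and at 91.1 and 80.1 FPKM in clone 2. It reached 78.1% of WT in clone 2 (-0.36 ± 0.063, adjusted p = 0.0130). Scd2 was at 344, 336, 343 and 343 FPKM in WT, at 321 and 299 FPKM in clone 1 and at 315 and 301 FPKM in clone 2. It was lower in both clones by a like amount (clone 1 -0.14 ± 0.037, adjusted p = 0.0344, and clone 2 -0.15 ± 0.037, adjusted p = 0.0305), and these calls were lost in 8 and 7 of 14 other settings. Reads of such paralogues, as of Acat2 and its copy Acat3, may be split between them in a way the sources used here do not give.

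The other 5 genes of the branch did not pass in clone 2. Acaca, which makes malonyl-CoA, was at 91.9% of WT (-0.12 ± 0.118, adjusted p = 0.544), and Elovl6, the elongase, at 86.6% (-0.20 ± 0.070, adjusted p = 0.0886). Elovl6 passed in 4 of 14 other settings. Fasn, the fatty acid synthase, stood at 163, 168, 156 and 162 FPKM in WT, at 178 and 192 FPKM in clone 1 and at 153 and 156 FPKM in clone 2. Its clone 2 libraries were just under the WT range (-0.07 ± 0.042, adjusted p = 0.298). Fads1 and Fads2, neighbouring genes for the desaturases of polyunsaturated fatty acids, were at 94.6% and 96.1% of WT in clone 2 (adjusted p = 0.299 and 0.408).

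In clone 1 the module lay close to WT. Of the 30 members 3 passed, against 15.6% of all genes tested (11.4% lower, 4.16% higher), and none of the 17 sterol genes or 4 regulators did. At an unadjusted p under 0.05 there were 7 members, Pmvk, Lss, Hsd17b7, Srebf2, Fasn, Scd2 and Fads2, against 32.3% of all genes. Fasn was higher, at 114% of WT (0.19 ± 0.042, adjusted p = 0.0199). Fads2 was lower, at 130 to 136 FPKM in WT against 120.5 and 111 FPKM in clone 1 (-0.20 ± 0.043, adjusted p = 0.0199). These 3 calls were all lost without clone 1 replicate 2, the library that stood apart, and also without WT replicate 3. Leaving out either of WT replicates 1 and 4 left 1 call, leaving out WT replicate 2 gave 5, and leaving out clone 1 replicate 1 gave 6. The 2266 calls over all genes dropped to 1077, 1029, 1008 and 438 without WT replicates 1, 3 and 4 and clone 1 replicate 2. Scaling each library by the median ratio of its genes changed the calls over all genes in clone 1 from 1662 lower and 604 higher to 1060 lower and 882 higher. Both clone 1 libraries were above all WT libraries for Fdps, Lss, Dhcr7 and Fasn, an order found in 12.1% of all genes, and below them for Nsdhl, Hsd17b7, Scd1, Scd2 and Fads2, as were 29.2% of all genes. The log2 fold change was negative in 17 of 30 members (56.7%), against 61.4% of all genes.

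The clones were then set against each other directly, which used no WT library in the difference itself. Of the 30 members 18 were lower in clone 2 than in clone 1 and 1, Hsd17b7, was higher, where 39.9% of all genes tested were called, 15.0% lower and 24.9% higher. The lower members were 11 sterol genes, Srebf2, Insig1 and Stard4, and Acly, Acss2, Fasn and Scd1. At an unadjusted p under 0.05 there were 22 members, against 49.1% of all genes, and 25 had a negative difference, against 43.3%. Both clone 2 libraries lay below both clone 1 libraries in 22 members, against 27.8% of all genes, and above them in Hsd17b7 and Fads2, against 40.1%. Lss differed most, with clone 2 at 57.2% of clone 1 (-0.79 ± 0.098, adjusted p = 0.000738). Stard4 was at 58.7% (-0.76 ± 0.168, adjusted p = 0.0116), Fdps at 61.1% (-0.71 ± 0.086, adjusted p = 0.000810) and Acss2 at 57.8% (-0.71 ± 0.147, adjusted p = 0.00595). Dhcr7 was at 64.7% and had the smallest adjusted p of the module (-0.62 ± 0.056, adjusted p = 0.000260). Hsd17b7 was at 131% of clone 1 (0.37 ± 0.088, adjusted p = 0.0109). For Scd2 the clones were within a narrow interval of each other (-0.01, 95% interval -0.11 to 0.09). Leaving out clone 2 replicate 2 reduced the members called to 12, and the 2176 lower and 3618 higher calls over all genes to 1139 and 1960. With median-ratio scaling the split over all genes was 2743 lower and 3269 higher.

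Set side by side, the sterol branch was further below WT than the fatty acid branch in clone 2. The median log2 fold change against WT was -0.30 over the 17 sterol genes, -0.39 over the 4 regulators and -0.15 over the 9 fatty acid genes, where the median of all genes tested was 0. In clone 1 these medians were -0.01, 0.09 and -0.06, against -0.05 over all genes. Without Acly and Acss2, which serve both branches, the fatty acid median was -0.13 in clone 1 and -0.12 in clone 2. Within both branches the members ranged widely, from -0.59 to 0.15 in the sterol branch and from -0.47 to -0.06 in the fatty acid branch. The difference between the branches was not tested, since members of a branch are not replicates of a condition.

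**Figure D4:**
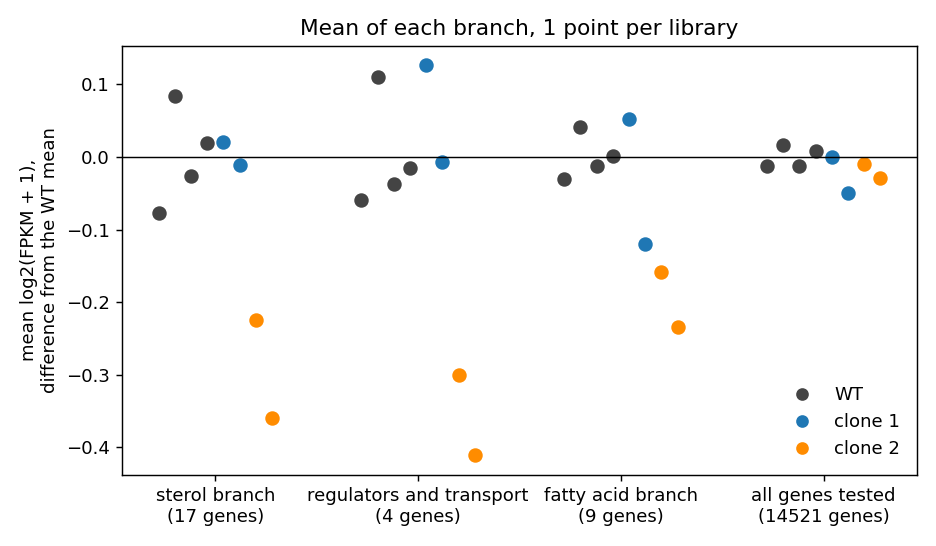
Mean difference of log2(FPKM + 1) from the WT mean for each branch and for all genes tested, 1 point per library, WT in grey, clone 1 in blue and clone 2 in orange. Both clone 2 points lie below all other libraries in each of the 3 branches, while all genes tested stay between -0.05 and 0.02.

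The libraries of a group also differed from each other in the module. The mean log2 difference from WT of the 17 sterol genes was -0.08, 0.08, -0.03 and 0.02 in WT replicates 1 to 4, 0.02 and -0.01 in clone 1 and -0.22 and -0.36 in clone 2. For the fatty acid genes the same values were -0.03, 0.04, -0.01 and 0.00094 in WT, 0.05 and -0.12 in clone 1 and -0.16 and -0.23 in clone 2. WT replicate 2 was the highest WT library in 13 of 17 sterol genes and in 4 of 4 regulators, against 37.2% of all genes. WT replicate 1 was the lowest in 13 of 17 sterol genes, against 30.7% of all genes. In clone 2, replicate 2 was below replicate 1 in 15 of 17 sterol genes, against 50.9% of all genes, and in 7 of 9 fatty acid genes. In clone 1, replicate 2 was below replicate 1 in 11 of 17 sterol genes and 8 of 9 fatty acid genes, against 70.0% of all genes. Summed FPKM of the sterol branch was 1323 and 1178 in clone 2, 1694 and 1660 in clone 1 and 1563 to 1760 in WT.

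Markers of cell state also differed between the groups. The 8 pluripotency markers summed to 98.7 to 125 FPKM in WT, to 172 and 191 FPKM in clone 1 and to 73.0 and 83.3 FPKM in clone 2, with Esrrb and Klf4 below 1 FPKM in all libraries. Most of the WT sum was Dnmt3b, at 70.5 to 81.1 FPKM in WT. Its level was 117 and 104 FPKM in clone 1 and 60.5 and 55.1 FPKM in clone 2. All 5 pluripotency markers tested were higher in clone 1, where 4.16% of all genes were. In clone 2, 2 of them were lower, where 6.96% of all genes were. Among those not tested, Esrrb was lower in clone 1, at 0.241 and 0.192 against 0.391 to 0.643 FPKM in WT. Zfp42 and Klf4 overlapped between clone 1 and WT. Pou5f1, which maintains pluripotency, was at 18.8, 30.4, 18.7 and 22.5 FPKM in WT replicates 1 to 4. It was at 52.4 and 48.5 FPKM in clone 1 and 14.3 and 10.9 FPKM in clone 2. The 8 progenitor markers summed to 455 to 512 FPKM in WT, 434 to 486 FPKM in clone 1 and 362 to 389 FPKM in clone 2. Otx2, at 196 to 220 FPKM, and Sox2, at 129 to 140 FPKM, were the largest parts of the sum in WT. Of these 8 markers 3 were lower in clone 1 (11.4% of all genes were), and 4 were lower and 2 higher in clone 2 (6.96% and 7.06% of all genes). Hesx1, an early forebrain factor, was at 21.7 to 36.7 FPKM in WT against 6.39 and 2.43 FPKM in clone 2. The 2 higher markers were Sox1, at 24.6 and 30.4 FPKM in clone 2, and Nes, at 28.3 and 33.2 FPKM. For both genes each clone 2 library lay above all WT libraries. The 4 neuron markers summed to 62.3 to 64.5 FPKM in WT, 55.8 to 63.2 FPKM in clone 1 and 49.9 to 51.7 FPKM in clone 2, with Dcx below 1 FPKM in all libraries. The 4 oligodendrocyte lineage markers summed to 14.0 to 16.8 FPKM in WT, 10.2 to 11.5 FPKM in clone 1 and 17.3 to 18.1 FPKM in clone 2, with Olig2 below 1 FPKM in all libraries. The 4 neural crest markers summed to 3.02 to 3.46 FPKM in WT, 2.87 to 3.01 FPKM in clone 1 and 3.88 to 4.01 FPKM in clone 2, with Foxd3 below 1 FPKM in all libraries. The part of these markers in the changes of the module was not tested.

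Genes around the module were counted in 6 further lists, by calls against WT, where 15.6% of all genes were called in clone 1 and 14.0% in clone 2. Of 11 tested genes of SREBP processing and feedback, 1 was lower in clone 1 (Rnf145, a ubiquitin ligase of the sterol response, -0.25 ± 0.047, adjusted p = 0.0132) and 1 in clone 2 (Mbtps2, the site-2 protease that frees SREBPs, -0.24 ± 0.069, adjusted p = 0.0494). Of 11 genes of cholesterol uptake, export and trafficking, none passed in clone 1 and 1 fell in clone 2. This was Scarb1, the HDL receptor, at 36.4, 45.7, 37.0 and 39.5 FPKM in WT, 47.2 and 44.1 FPKM in clone 1 and 30.5 and 24.5 FPKM in clone 2 (-0.52 ± 0.109, adjusted p = 0.0224). The 9 genes of the isoprenoid branch that leaves the sterol pathway at farnesyl pyrophosphate had no call in clone 1 and 2 higher in clone 2, Pdss1 of coenzyme Q synthesis (0.53 ± 0.081, adjusted p = 0.00813) and Fnta of protein farnesylation (0.17 ± 0.043, adjusted p = 0.0353). Median log2 fold changes in clone 2 were 0.10, -0.01 and 0.03 for these 3 lists.

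Over all genes tested, 11.4% were lower and 4.16% higher in clone 1, and 6.96% lower and 7.06% higher in clone 2. Electron carriers and further sterol enzymes, with 7 genes tested, had 2 lower in clone 1, and 1 higher and 1 lower in clone 2. Cyb5a, a cytochrome that serves desaturases, rose in clone 2 (0.26 ± 0.034, adjusted p = 0.00453), and Erg28, a scaffold of the C4 demethylation enzymes, fell (-0.25 ± 0.044, adjusted p = 0.0131). The 21 genes of fatty acid elongation, activation and supply had 2 higher and 2 lower in clone 1 and 2 higher and 3 lower in clone 2. Elovl2, an elongase of polyunsaturated fatty acids, went opposite ways: it fell in clone 1 (-0.52 ± 0.089, adjusted p = 0.00974) but rose in clone 2 (0.38 ± 0.089, adjusted p = 0.0274). Mlxipl, a glucose-responsive activator of lipogenic genes, was higher in clone 1 (0.50 ± 0.102, adjusted p = 0.0165) and lower in clone 2 (-0.53 ± 0.102, adjusted p = 0.0159), at levels of only 0.645 to 2.51 FPKM. Of 8 glycerolipid assembly genes, 1 was higher and 2 lower in clone 1, and 2 were higher and 1 lower in clone 2. There Dgat2, a triglyceride synthase, was lower in clone 1 (-0.44 ± 0.084, adjusted p = 0.0133) and higher in clone 2 (0.31 ± 0.084, adjusted p = 0.0444), and Lpin1, a phosphatidate phosphatase, ran the reverse course (0.48 ± 0.119, adjusted p = 0.0299, and -0.57 ± 0.119, adjusted p = 0.0207). Median log2 fold changes of these 3 lists in clone 2 were 0.03, -0.06 and 0.10.

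In the promoter windows, motif matches occurred both in members that fell in clone 2 and in members that did not pass. The 19 members with a CCAAT match had a median log2 fold change of -0.29 in clone 2 and the 4 without one -0.16. For GGGCGG these medians were -0.27 for 19 members and -0.16 for 4. Each of these 2 motifs occurred in 13 of 14 sterol but 3 of 6 fatty acid genes, so the medians also differ in their mix of branches. The 4 members with CACGTG had a median of -0.30 and the other 19 with a window -0.27. Of those 4, Dhcr7 and Insig1 fell, while Sc5d and Hsd17b7 did not pass. Hmgcs1, with the TCACNCCAC match, was at -0.52.

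The authors' deposited table compares all null with all WT libraries and gives a p for each gene from an unstated test. In it 6 members had a p under 0.05, Nsdhl, Ebp, Insig1, Scd1, Scd2 and Fads2, and 5 of them had a fold below 1. Of the 14521 genes tested here, 6.58% had a p under 0.05 in the authors' deposited table. The authors' deposited table gives a null over WT fold of 0.927 for Scd2 (p = 4.2e-05), 0.843 for Insig1 (p = 0.0292) and 0.846 for Hmgcs1 (p = 0.0558). The authors' deposited table lists folds below 1 for 27 of the 30 members, against 43.5% of the genes tested here.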

How the data were processed

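Poly(A) RNA of 8 libraries was analysed from a table deposited for the whole series. Per the file headers, the authors gave FPKM for each library, their mean FPKM and mean read numbers per group (a signal whose scaling is not stated), a fold of null over WT and a p-value from an unstated test. The submitters' processing notes list FastQC, TopHat2, SAMtools, Cufflinks, DESeq2, GRCm38 and mm10. Tool order, versions and use of strand are not given in the sources used here.

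Genes with a mean of at least 1 FPKM over the 8 libraries were tested as log2(FPKM + 1) with limma 3.58.1 in R 4.3.3, with a mean trend and robust variance, and Benjamini-Hochberg adjustment over all 14521 genes, at an adjusted p of 0.05. The log2(FPKM + 1) scale understates changes of low genes. The clones were compared in a 3-group model with 1 shared spread per gene, which measures libraries within a line and not lines. P-values therefore reflect only the spread between these libraries, which may be technical. Depth is unknown, so no counting interval is given. Percentages of WT are ratios of mean FPKM, and errors are SD for levels and SE for log2 fold changes. The code was tested on simulated data. Named genes were all members, and up to 3 genes per further list with the smallest adjusted p in either clone. The members and lists were chosen with earlier results of these data known. Null columns are identified by line and number.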

Additional observations from a re-analysis of the deposited data

Results flagged for a closer look

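The 2 null clones differed from each other in 19 of 30 members by limma's test of the difference itself, where 39.9% of all genes tested differed. On the log2(FPKM + 1) scale, clone 2 minus clone 1 was -0.27 for Acat2, -0.46 for Hmgcs1, -0.65 for Pmvk, -0.25 for Idi1, -0.71 for Fdps, -0.37 for Fdft1 and -0.20 for Sqle. From lanosterol onward it was -0.79 for Lss, -0.25 for Cyp51, -0.45 for Msmo1 and -0.62 for Dhcr7, and 0.37 for Hsd17b7, the one member higher in clone 2. The regulators differed by -0.41 for Srebf2, -0.42 for Insig1 and -0.76 for Stard4. In the fatty acid branch the differences were -0.33 for Acly, -0.71 for Acss2, -0.26 for Fasn and -0.22 for Scd1. Both clones lack the same element by their labels, which do not give the ends of each deletion. What separates the clones was not tested.

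In the WT group Scd2 stood at 336 FPKM in replicate 2, apart from 343 to 344 FPKM in the other 3 libraries. It was 1 of 30 WT groups past Dixon's 95% value, and chance flags about 1 in 20 groups.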

How the results depend on the processing

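For null against WT, 8 genes passed. The count was 5 after median-ratio scaling, 1 with a replicate block, 3 with libraries of a line treated as correlated and 3 to 8 with a library left out. Replicate numbers 3 and 4 occur only in WT, so in each comparison with WT the block gave those WT libraries no weight. Its lower counts there also reflect fewer libraries in use. Averaging the clones within the 3-group fit gave 106 genes and 1 member. The sterol median ranged from -0.224 to -0.0816 with a library left out, the latter without clone 2 replicate 2.

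For clone 1, the count of genes was 1506 without the filter on low values, 36 with a replicate block and 438 to 3091 with a library left out. The 3 members called became 1 without trend and robust variance, 0 with a replicate block and 0 to 6 with a library left out. The fatty acid median was -0.13 without Acly and Acss2, and ranged from -0.162 to 0.0224 with a library left out.

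For clone 2, genes numbered 1160 and members 11 without the filter, 45 and 0 with a replicate block, and 172 to 2425 and 4 to 19 with a library left out. The sterol median ranged from -0.37 to -0.24.

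For clone 2 against clone 1, a replicate block gave 2995 genes and 11 members, and leaving out a library gave 3099 to 5904 genes and 12 to 22 members. The sterol median then ranged from -0.31 to -0.19 and the fatty acid median from -0.206 to -0.0385, and the latter was -0.0299 without Acly and Acss2. Numbers crossed between the clones, an alternative chosen after seeing the data, gave 3949 genes and 15 members.

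Whether the replicate numbers pair the samples could not be settled. Same-numbered libraries of the clones correlated at -0.20 in their deviations from the group means, and 2 libraries per clone give only 1 such contrast. Same-numbered libraries of WT and clone 1 correlated at 0.23 for number 1 and -0.20 for number 2. For WT and clone 2 these values were -0.31 and -0.09. With a library of a clone left out, the lone library is assumed to vary like the other groups. In these settings no called member changed direction. The direct difference between the clones kept its call in all 13 planned settings for Dhcr7, Fdps, Lss, Hmgcs1, Fdft1, Msmo1, Insig1, Srebf2, Acly, Acss2 and Fasn. The causes of these shifts were not tested.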
